A study of Drosophila melanogaster with 136 samples.

Results

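The Drosophila genes that make, trim and use microRNAs (miRNAs) and small interfering RNAs (siRNAs) are described here: drosha, pasha, Dcr-1, loqs, gw, Nbr, Tailor, Dcr-2, r2d2 and AGO2. These 10 genes were picked by name and FlyBase identifier from the 17477 genes of every mRNA table, and each passed the filter on low counts in all 6 tables. The series follows the loss of Dora (ZSWIM8 in mammals), a ubiquitin ligase component needed for target-directed miRNA degradation. It holds 68 poly(A) RNA libraries in 32 groups, from S2 cells (a cultured line of hemocyte-like embryonic origin) and from staged embryos. The S2 groups are 3 dora and 3 WT clonal lines, and 3 dora and 3 WT clones under Ago1 RNAi or under GFP RNAi as the control, collected 4 days after the second of 2 transfections with double-stranded RNA. A further S2 set holds 2 libraries each of lines named for the transcripts ago1, h, kah, wgn and zfh1, with 2 WT libraries. The embryo groups are dora[A] and dora[B] with their own WT at 8 to 12, 12 to 16 and 16 to 20 h, 2 libraries per genotype and age. CR43432 embryos and their WT have 2 libraries each at 8 to 12 and 12 to 16 h and 1 each at 16 to 20 h, and this WT was also sampled at 0 to 2 and 2 to 4 h, with 2 libraries per age. In that set replicates 1 and 2 are named in the titles as lines 1 and 2 of each genotype, which recur from age to age, and the library at 16 to 20 h is line 2. The labels do not say what each allele deletes, whether homozygous embryos were picked, or what the S2 edits remove.

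In the miRNA pathway, a nuclear RNase III with a double-stranded-RNA-binding partner cuts the primary transcript, and a cytoplasmic Dicer with its own partner cuts the hairpin. The product is loaded mainly into AGO1, which silences targets through the GW-repeat protein encoded by gw. In flies, siRNAs have a separate Dicer, a separate partner and a separate Argonaute, and enzymes that trim or tail 3′ ends act on the intermediates and products. Early embryos carry maternal mRNAs that are replaced by zygotic transcripts.

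Levels are in CPM, a library's counts scaled to a common total, with the trimmed mean of M values (TMM) as scaling factor within a table. They are set side by side between libraries of a table, never between genes, because exon lengths were not available here. Differences are log2 fold changes with their SE from edgeR's quasi-likelihood test, and "called" means an adjusted p under 0.05 over all genes tested. Gene reads per library numbered 8.96 to 35.5 M, and the counts of the 10 genes were 87 to 46734.

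Ago1 RNAi lowered AGO1 to 198 to 205 CPM in dora cells, against 436 to 478 CPM under GFP RNAi, and to 218 to 245 CPM in WT cells, against 491 to 744 CPM. Dora mRNA persisted in dora cells of the first S2 set, at 104 to 132 CPM against 122 to 131 CPM in WT, so its level does not check that label, and in the RNAi set under GFP RNAi it was at 83.5 to 111 CPM in dora against 134 to 138 CPM in WT. In dora[B] embryos Dora was lower in every library than in WT of the same age, 184 to 571 CPM against 394 to 825 CPM over the 3 ages. In dora[A] embryos it was lower at 8 to 12 h only, 498 to 574 CPM against 618 to 718 CPM. Each named transcript was lower in its S2 line than in both WT libraries, for example AGO1 at 539 and 621 CPM in the ago1 line against 825 and 829 CPM. The lncRNA CR43432 was at 162 to 186 CPM in mutants and 215 to 225 CPM in WT at 8 to 12 h. Of 8 hemocyte markers, NimC1 or He was at 0 in 10 of the 12 S2 groups, while the summed level was 1040 to 1770 CPM, and muscle markers summed to at most 58.2 CPM.

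The 6 dora[B] embryo libraries stood apart from their WT before any of the 10 genes is considered. The maternal transcript bcd, which patterns the anterior, stood at 77.6 to 179 CPM in the dora[B] libraries and at 0.175 to 2.18 CPM in their WT. The cellularization gene slam was at 51.7 to 148 CPM in dora[B] and 0.0875 to 3.16 CPM in WT. Both are otherwise high in young wild-type embryos of the CR43432 set, which was scaled separately. There bcd was at 149 and 168 CPM at 0 to 2 h and slam at 1720 and 2640 CPM at 2 to 4 h. Of the 5 maternal markers 2 were called higher and 1 lower in dora[B], with sums of 156 to 340 CPM against 101 to 221 CPM in WT, and nanos and exu stayed under 4.3 CPM in dora[B]. Of the 5 early zygotic markers 1 was called higher, with sums of 69.5 to 239 CPM against 21.0 to 145 CPM. All 5 muscle and all 5 neuron markers were called lower, with muscle sums of 13300 to 25500 CPM in dora[B] and 35000 to 35800 CPM in WT at 16 to 20 h, as were 3 of 5 late markers and 3 of 8 hemocyte markers. In the dora[A] set, replicate 1 at 8 to 12 and 12 to 16 h also held more bcd, at 41.2 and 35.7 CPM, than replicate 2, at 0.473 and 0.755 CPM. In these bulk embryo samples, fewer cells of a type and less RNA per cell cannot be told apart.

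Wild-type embryos show how the machinery changes with age. By mean level, Nbr, Dcr-1 and Dcr-2 were highest at 0 to 2 h, drosha, pasha, Tailor, r2d2, gw and loqs at 2 to 4 h, and AGO2 at 8 to 12 h. The stage comparisons below test neighbouring ages within 1 table. Between 2 to 4 and 0 to 2 h, 5 of the 10 genes were called, where 35.7% of all genes tested were, and between 8 to 12 and 2 to 4 h 8 of 10 were called, where 59.3% of all genes were. The first count was 9 with RLE scaling, without a filter or in DESeq2, with pasha, loqs, gw and Tailor also higher. Of all genes, 40.2%, 29.5% and 41.5% were called under these settings, and 24.3%, 17.5% and 25.1% were called higher, against 16.4% higher and 19.2% lower with TMM. Without replicate 1 at 0 to 2 h 8 of the 10 were called, where 36.2% of all genes were.

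Drosha is the nuclear RNase III that cuts primary miRNA transcripts. Its transcript was at 164 and 161 CPM at 0 to 2 h, 229 and 236 at 2 to 4 h, 87.5 and 87.9 at 8 to 12 h, 48.5 and 57.7 at 12 to 16 h and 29.8 in the 1 library at 16 to 20 h. The ages did not overlap at any step. Neither did 59.1%, 78.6% and 77.8% of all genes tested at the successive steps up to 12 to 16 h. It rose by 0.52 ± 0.16 (SE) on the log2 scale between 2 to 4 and 0 to 2 h (edgeR adjusted p = 0.0252) and then fell by 1.41 ± 0.16 at 8 to 12 h (2.25e-05) and by 0.72 ± 0.16 at 12 to 16 h (0.00413). Without replicate 1 at 2 to 4 h, the early rise had an adjusted p of 0.0597.

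The gene pasha, for the double-stranded-RNA-binding partner of Drosha, stood at 109 and 45.4 CPM at 0 to 2 h, 128 and 133 at 2 to 4 h, 33.0 and 39.0 at 8 to 12 h, 20.8 and 23.4 at 12 to 16 h and 16.0 at 16 to 20 h. The 0 to 2 h libraries differed from each other by more than those of any other age. The fall at 8 to 12 against 2 to 4 h was called (log2 difference -1.86 ± 0.35, adjusted p = 0.000793), and the early difference was not (0.76 ± 0.34, 0.108), but without the 0 to 2 h library at 109 CPM it was (0.000788).

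**Figure D1:**
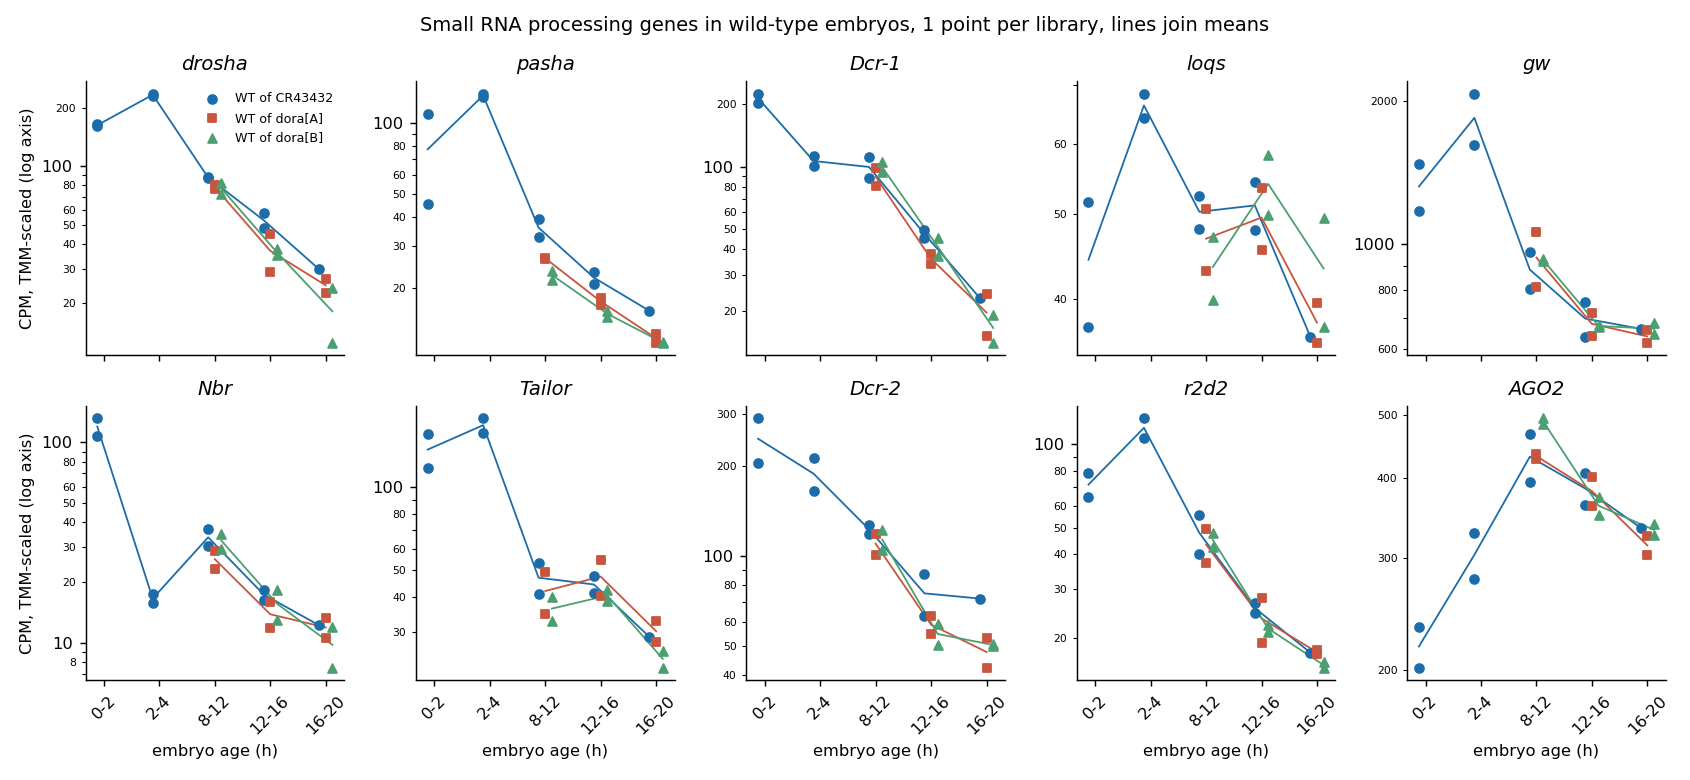
TMM-scaled CPM of the 10 genes in wild-type embryos by age in hours, on a log axis, 1 point per library, with lines joining the means within each of the 3 WT series. Nbr dropped between 0 to 2 and 2 to 4 h, drosha, pasha, Tailor, r2d2 and gw dropped after 2 to 4 h, and the 3 WT series overlap or lie close to each other at the ages they share.

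Dcr-1, the Dicer of the miRNA pathway, was at 226 and 203 CPM at 0 to 2 h, 101 and 112 at 2 to 4 h, 111 and 88.3 at 8 to 12 h, 44.9 and 49.6 at 12 to 16 h and 23.1 at 16 to 20 h. It fell in 2 steps, early and after 8 to 12 h, with overlapping libraries in between. The log2 differences were -1.01 ± 0.19 at 2 to 4 against 0 to 2 h (adjusted p = 0.00168), -0.09 ± 0.19 at 8 to 12 against 2 to 4 h (0.712) and -1.08 ± 0.20 at 12 to 16 against 8 to 12 h (0.00128). The other 2 WT series gave -1.32 (dora[A] controls, 0.00244) and -1.27 (dora[B] controls, 0.00318) for the last of these steps. Between 16 to 20 and 12 to 16 h, Dcr-1 was the 1 gene of the 10 called in each of those series, at -0.87 ± 0.25 (0.03), where 24.6% of all genes were called, and at -1.3 ± 0.27 (0.0113), where 14.5% were. Leaving out 1 library ended that last call in 3 of 4 cases in the dora[A] controls (all but 16 to 20 h replicate 1) and in 2 of 4 in the dora[B] controls (12 to 16 h replicate 1, 16 to 20 h replicate 2).

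Nbr encodes Nibbler, the exonuclease that trims the 3′ ends of miRNAs. It was at 132 and 108 CPM at 0 to 2 h, 17.4 and 15.8 at 2 to 4 h, 36.9 and 30.2 at 8 to 12 h, 16.4 and 18.4 at 12 to 16 h and 12.2 at 16 to 20 h. It was the 1 gene of the 10 with a lower mean at 2 to 4 h than at both neighbouring ages. The difference between 2 to 4 and 0 to 2 h was -2.85 ± 0.23 (adjusted p = 4.37e-06), followed by a rise of 1.02 ± 0.22 at 8 to 12 h (0.00224) and a fall of 0.95 ± 0.22 at 12 to 16 h (0.00552), the last at 0.0511 without 12 to 16 h replicate 1.

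Tailor, a terminal uridylyltransferase that tails miRNA hairpins, was at 156 and 118 CPM at 0 to 2 h, 158 and 178 at 2 to 4 h, 41.0 and 53.1 at 8 to 12 h, 41.3 and 47.6 at 12 to 16 h and 28.7 at 16 to 20 h. Its called change was the fall after 2 to 4 h, by 1.84 ± 0.21 (adjusted p = 2.31e-05). The gene gw, for the silencing partner of AGO1, was at 1470 and 1170 CPM, 1610 and 2070, 804 and 962, 638 and 755, and 663 over the same 5 ages. It fell by 1.06 ± 0.18 between 8 to 12 and 2 to 4 h (0.000339). The earlier difference of gw, 0.48 ± 0.18 (0.0535), passed without either 0 to 2 h library (0.0168 each) or without 2 to 4 h replicate 1 (0.0336).

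The product of loqs binds double-stranded RNA as the partner of Dcr-1, and an isoform of it works with Dcr-2. Its transcript was at 51.5 and 37.2 CPM at 0 to 2 h, 64.2 and 68.4 at 2 to 4 h, 48.1 and 52.4 at 8 to 12 h, 47.9 and 54.3 at 12 to 16 h and 36.3 at 16 to 20 h. It was the 1 gene of the 10 with no called stage difference in any WT series. The difference at 2 to 4 against 0 to 2 h (0.58 ± 0.22, adjusted p = 0.0572) missed the threshold and passed it without either 0 to 2 h library (0.00958 and 0.0214) or without 2 to 4 h replicate 2 (0.0384).

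The siRNA genes did not share 1 course. Dcr-2, which cuts long double-stranded RNA into siRNAs, was at 290 and 205 CPM at 0 to 2 h, 165 and 213 at 2 to 4 h, 119 and 127 at 8 to 12 h, 62.9 and 87.0 at 12 to 16 h and 72.0 at 16 to 20 h. Its partner r2d2, which helps load AGO2, was at 78.7 and 64.2, 105 and 124, 40.1 and 55.5, 24.6 and 26.6, and 17.7 CPM. AGO2, the siRNA-guided slicer, was at 234 and 202, 328 and 278, 468 and 394, 363 and 406, and 334 CPM. Thus r2d2 peaked at 2 to 4 h while AGO2 was lowest at 0 to 2 h. The level of r2d2 rose by 0.68 ± 0.21 (adjusted p = 0.0283) at 2 to 4 h and fell by 1.26 ± 0.22 (0.000415) at 8 to 12 h. AGO2 rose by 0.47 ± 0.16 (0.0338, and 0.186 without 2 to 4 h replicate 1) and again by 0.51 ± 0.16 (0.0146, and 0.112 without 8 to 12 h replicate 1). Dcr-2 fell by 0.62 ± 0.22 between 8 to 12 and 2 to 4 h (0.0278), a call that was lost without 2 to 4 h replicate 2 (0.208), 8 to 12 h replicate 1 (0.109) or 8 to 12 h replicate 2 (0.0683).

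After 8 to 12 h all called changes of the 10 genes were decreases. Between 12 to 16 and 8 to 12 h, Dcr-1, Nbr, r2d2, drosha and Dcr-2 were called lower in the CR43432 controls (5 of 10, where 21.1% of all genes were called lower) and in the dora[B] controls (5 of 10, 15.8%), and the same genes other than r2d2 in the dora[A] controls (4 of 10, 15%). Without any 1 of the 4 libraries of the dora[B] controls, Dcr-1 alone was called there. Leaving out 12 to 16 h replicate 2 of the dora[A] controls also left Dcr-1 alone, and leaving out either of their 8 to 12 h libraries left 2 genes. In the CR43432 controls 3 genes were called without 8 to 12 h replicate 2 and 2 without 12 to 16 h replicate 1.

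Other pathway genes give a setting for these levels. Of 27 genes of the piRNA pathway, which silences transposons in the germ line, 23 were called lower and 1 higher at 8 to 12 against 2 to 4 h (median log2 difference -3.08, against 0.08 over all genes tested). The gene piwi, for a nuclear piRNA-binding protein, was at 5.18 CPM at 8 to 12 h, against 123 CPM at 2 to 4 h. Of 18 tested deadenylation and decapping genes, which act downstream of GW182, 12 were lower and 2 higher (median -0.68), with the decapping helicase gene me31B at 260 CPM at 8 to 12 h, against 2670 CPM. The median of the 10 genes was -0.84.

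In dora[B] embryos 6 of the 10 genes were higher than in their WT when the 3 ages were averaged, namely pasha, Tailor, Dcr-2, r2d2, gw and drosha. Each of the 6 was also higher in every dora[B] library than in both WT libraries of its age. The same held for 13.9% of all genes tested over the 3 ages, and for 29.2%, 21.9% and 18.5% at the single ages. None of the 10 was called lower. Of all genes tested, 42.5% were called in either direction, 17.8% higher and 24.7% lower, and the median log2 difference of all genes was -0.38. The median of the 10 genes was 0.93.

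The pasha transcript was at 70.1 and 76.7 CPM in dora[B] at 8 to 12 h, 38.1 and 65.2 at 12 to 16 h and 64.3 and 23.4 at 16 to 20 h, against 21.7 and 23.7, 16.0 and 15.1, and 11.8 and 11.7 CPM in WT. All 6 dora[B] libraries were above the WT libraries of their age, and the 2 mutant libraries differed most from each other at 16 to 20 h. The mean difference was 1.78 ± 0.24 (edgeR adjusted p = 0.000212), or 2.16 above the median of all genes. Its partner drosha was at 108 and 103, 54.1 and 79.7, and 64.1 and 29.9 CPM in dora[B] against 72.3 and 81.9, 35.1 and 37.6, and 23.8 and 12.5 CPM in WT. Its difference was 0.9 ± 0.22 (0.00742), 1.28 above the median.

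Tailor was at 105 and 114 CPM in dora[B] at 8 to 12 h, 76.8 and 129 at 12 to 16 h and 120 and 68.2 at 16 to 20 h, against 40.0 and 32.7, 38.6 and 42.5, and 22.2 and 25.6 CPM in WT. Every dora[B] library held more Tailor than the highest WT library of the set (1.64 ± 0.19, adjusted p = 6.5e-05, 2.02 above the median of all genes). The gw transcript was at 1730 and 1570, 1170 and 1530, and 1730 and 977 CPM in dora[B] against 922 and 928, 668 and 676, and 681 and 646 CPM in WT (0.96 ± 0.14, 0.00039, 1.34 above the median).

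Dcr-2 was at 211 and 204, 100 and 177, and 194 and 93.1 CPM in dora[B] at the 3 ages against 122 and 105, 59.1 and 50.4, and 50.6 and 50.0 CPM in WT, a mean difference of 1.24 ± 0.20 (adjusted p = 0.000637, 1.62 above the median). Its partner r2d2 was at 80.2 and 79.6, 43.0 and 68.4, and 55.9 and 30.8 CPM in dora[B] against 47.8 and 42.6, 22.2 and 21.0, and 16.3 and 15.6 CPM in WT (1.21 ± 0.18, 0.00043, 1.59 above the median). For both siRNA genes the WT level fell with age while the dora[B] replicates spread apart. AGO2, the third siRNA gene, was at 482 and 461, 362 and 399, and 349 and 309 CPM in dora[B] against 495 and 484, 350 and 373, and 325 and 338 CPM in WT, a difference of 0 ± 0.1 (adjusted p = 1).

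The remaining miRNA genes did not pass the test in the dora[B] mean. Dcr-1 differed by 0 ± 0.13, with 86.1 and 68.5 CPM in dora[B] against 93.7 and 105 in WT at 8 to 12 h, and 22.1 and 25.7 in dora[B] against 19.1 and 14 in WT at 16 to 20 h. The loqs transcript averaged 52.6 CPM in dora[B] and 47 CPM in WT (0.17 ± 0.14, adjusted p = 0.338). Nbr averaged 12.8 CPM in dora[B] and 19.2 CPM in WT (-0.51 ± 0.22, 0.0775), which is 0.13 below the median of all genes. Without dora[B] replicate 2 at 16 to 20 h, loqs (0.48, adjusted p = 0.0148) and AGO2 (0.30, 0.0433) were also called higher.

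**Figure D2:**
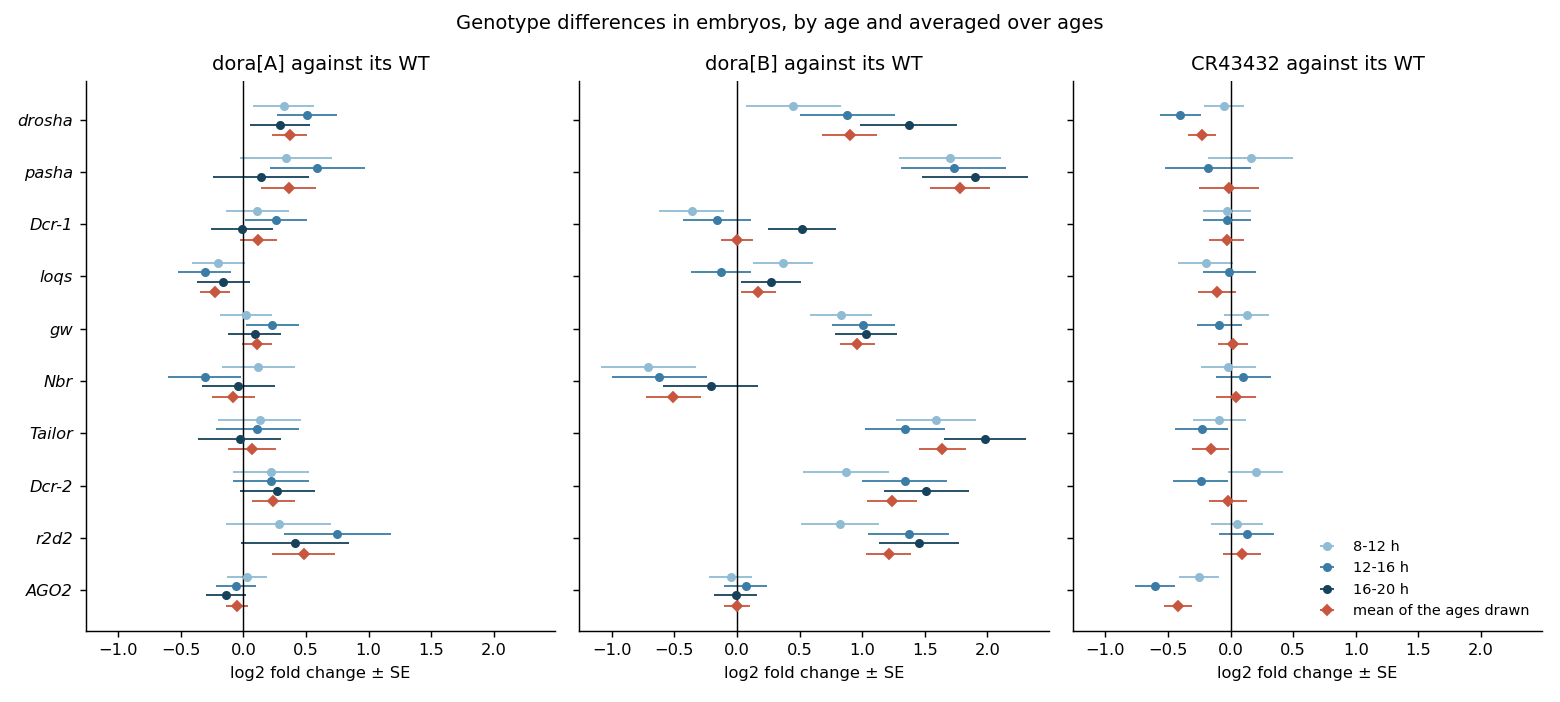
Log2 fold change ± SE of each gene in dora[A], dora[B] and CR43432 embryos against their own WT, by age (circles) and averaged over the ages drawn (diamonds). In dora[B] the means of pasha, Tailor, Dcr-2, r2d2, gw and drosha lie between 0.9 and 1.78, whereas in dora[A] and CR43432 the means of all 10 genes lie between -0.42 and 0.48.

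At single ages of dora[B], 2 genes were called at 8 to 12 h (pasha 1.7 and Tailor 1.59), where 6.68% of all genes were called higher. At 12 to 16 h 5 were called, pasha, Tailor, Dcr-2, r2d2 and gw at 1.01 to 1.73, where 11.3% of all genes were higher. At 16 to 20 h drosha joined them, with 6 genes at 1.03 to 1.98, where 10.2% were higher. These single-age calls rest on 2 libraries a side. At 8 to 12 h no gene was called once any 1 of the 4 libraries was left out, and the same held at 12 to 16 h for either WT library or dora[B] replicate 2, and at 16 to 20 h for either WT library, while Tailor alone was called there without dora[B] replicate 1, and 8 genes, with Dcr-1 (0.0424) and loqs (0.0371) added, without dora[B] replicate 2. The difference of the dora[B] effect between 16 to 20 and 8 to 12 h, a test added after seeing the data, was called for none of the 10 genes in edgeR (1.61% of all genes were called; 13.7% had an unadjusted p under 0.05).

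The dora[B] replicates differed in the early transcripts and in these genes alike at the 2 later ages. The 2 dora[B] libraries with the least bcd, 12 to 16 h replicate 1 (79.0 CPM) and 16 to 20 h replicate 2 (77.6 CPM), were also the lower of their pairs in drosha, pasha, gw, Tailor, Dcr-2 and r2d2. For AGO2 the lower library of each of these pairs was the same, at 362 against 399 and 309 against 349 CPM, whereas Dcr-1 and Nbr went the other way in both. The part of the early transcripts in the result was not tested. The plot of dora[B] differences against wild-type stage differences sets these comparisons, which share no library, side by side without a test of their relation.

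**Figure D3:**
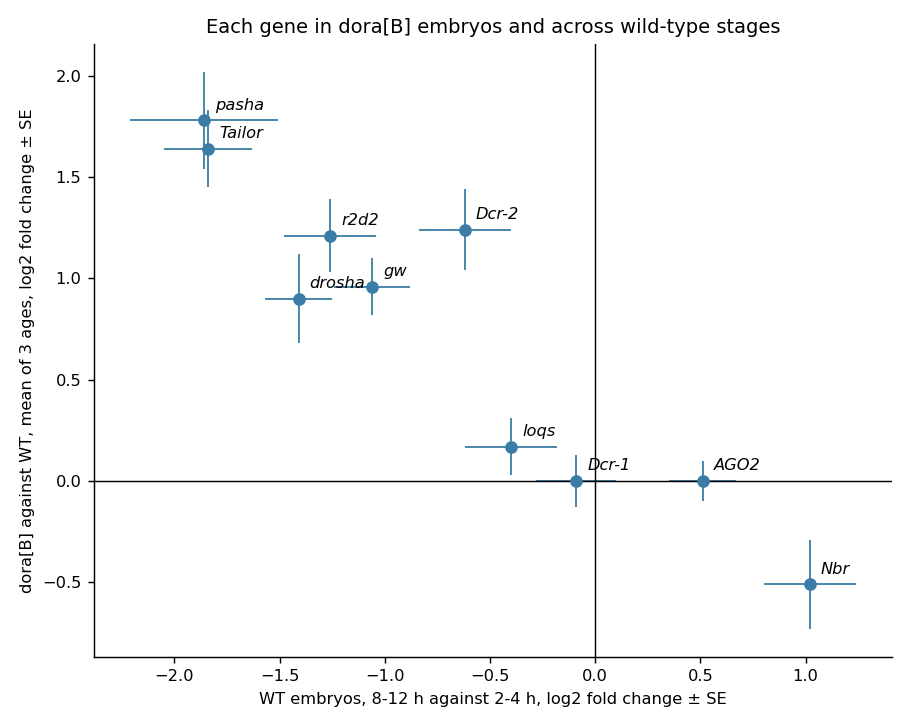
For each of the 10 genes, the log2 fold change ± SE in dora[B] embryos against WT (mean of 3 ages, vertical axis) is drawn against the change in WT embryos of the CR43432 series between 8 to 12 and 2 to 4 h (horizontal axis). The 6 genes called higher in dora[B] lie between -1.86 and -0.62 on the horizontal axis, and Nbr is lowest at -0.51 and farthest to the right at 1.02.

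The wider pathway lists moved in both directions in dora[B]. Of the 27 piRNA genes 17 were called higher and 1 lower (median 2.06), among them AGO3, a piRNA-guided slicer, at 172 CPM in dora[B] and 3.91 CPM in WT, and mael at 97.4 CPM in dora[B] and 6.53 CPM in WT. Of 5 germ line markers aub and osk were called higher and none lower, with vas (5.09 CPM in dora[B] and 6.91 CPM in WT), nanos (1.35 and 2.17 CPM) and pgc (0.268 and 0.275 CPM) not called. The sums of the 5 were 84.7 to 93.8, 36.4 to 64.9 and 40.0 to 99.6 CPM in dora[B] at the 3 ages against 32.3 to 37.0, 13.4 to 16.0 and 15.9 to 16.4 CPM in WT, and their part in the result was not tested. Of 16 tailing and exosome genes 5 were higher and 1 lower, with the maternal poly(A) polymerase gene wisp at 528 CPM in dora[B] and 6.39 CPM in WT. Of 18 deadenylation and decapping genes 9 were higher and 6 lower. The gene tral, for a partner of the decapping helicase, rose by 2.04 ± 0.22 (adjusted p = 5.8e-05), while the deadenylase gene twin fell by 0.61 ± 0.11 (0.00145). Of 18 other core and loading genes 5 were higher and 5 lower, among them the cap-binding gene Cbp80 (1.71 ± 0.20) and its partner in primary miRNA processing Ars2 (1.25 ± 0.18).

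In dora[A] embryos no gene of the 10 was called by edgeR, and 0% of all genes were, although 727 genes had an unadjusted p under 0.05 and DESeq2 called 18 genes and none of the 10. At single ages none of the 10 was called by either tool, where 0.00897% of all genes at 8 to 12 h, 0% at 12 to 16 h and 0% at 16 to 20 h were in edgeR, the 1 gene at 8 to 12 h being lower. None of the 10 had an unadjusted p under 0.05 at a single age. In the mean, drosha had the smallest unadjusted p of the 10 (0.0223). It was at 105 and 90.4 CPM in dora[A] at 8 to 12 h, 54.1 and 51.3 at 12 to 16 h and 29.8 and 30.5 at 16 to 20 h, against 76.3 and 80.4, 45.3 and 28.7, and 26.7 and 22.6 CPM in WT. It was higher in all 6 dora[A] libraries than in the WT libraries of the same age (0.37 ± 0.14, adjusted p = 0.739). The loqs transcript was lower in all 6, at 41.0 and 40.6, 41.1 and 38.5, and 32.1 and 35.1 CPM in dora[A] against 43.1 and 50.6, 45.5 and 53.5, and 39.6 and 35.7 CPM in WT (-0.23 ± 0.12, 0.739). Of all genes tested, 0.798% were higher and 1.04% lower in this way at all 3 ages.

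In dora[A] the levels of pasha and r2d2 differed more between replicates than between genotypes. The pasha transcript was at 45.8 and 21.6, 33.9 and 19.0, and 15.2 and 11.9 CPM in dora[A] against 26.5 and 26.9, 17.0 and 18.1, and 12.8 and 11.7 CPM in WT. For r2d2 the levels were 62.6 and 42.8, 56.8 and 22.1, and 29.5 and 17.8 CPM in dora[A] against 49.5 and 37.3, 27.9 and 19.1, and 18.0 and 17.5 CPM in WT. In both genes the high value belonged to replicate 1, which at the first 2 ages is the one with more bcd. With those 2 libraries left out, an alternative chosen after seeing the data, the mean difference was -0.03 instead of 0.36 for pasha, 0.09 instead of 0.48 for r2d2 and 0.31 instead of 0.37 for drosha, and no gene was called.

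In CR43432 embryos no gene of the 10 was called by edgeR over the 2 ages with replicates, where 0.0698% of all genes were and 385 genes had an unadjusted p under 0.05, but AGO2 was lower in every library. AGO2 was at 362 and 363 CPM in CR43432 at 8 to 12 h, 244 and 264 at 12 to 16 h and 225 in the 1 library at 16 to 20 h, against 468 and 394, 363 and 406, and 334 CPM in WT. The groups did not overlap at either replicated age. Of all genes tested, 3.07% were lower in this way at both ages, 16.9% at 8 to 12 h and 16.7% at 12 to 16 h. The mean difference of AGO2 was -0.42 ± 0.11 (unadjusted p = 0.00256, adjusted p = 0.624), and DESeq2 did call it (adjusted p = 0.0405), the 1 gene of the 10 it called. These tests of the mean treat the 2 ages of a line as independent libraries. At 8 to 12 h, where edgeR called 0.0436% of all genes, neither tool called any of the 10. At 12 to 16 h alone, where edgeR called 0.0175% of all genes, it gave AGO2 -0.6 ± 0.16 (0.506), and DESeq2 gave an adjusted p of 0.0237. The share of all genes that DESeq2 called is not given here. The other 9 genes differed by -0.23 to 0.09 in the mean.

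In S2 cells, Ago1 RNAi was followed by higher levels of several miRNA biogenesis genes in both genotypes. In dora cells loqs, Nbr, pasha, Dcr-1, drosha and Tailor were called higher and AGO2 lower (7 of 10, where 24.6% of all genes were called higher, 26.7% lower and 51.2% in either direction). In WT cells Nbr, loqs, Dcr-1 and drosha were called higher (4 of 10, where 25.6% were higher, 28.4% lower and 54% in either direction). The 10 genes had a median of 0.25 in dora cells, against -0.01 over all genes, and of 0.29 in WT cells, against -0.02. In dora cells 6 of the 10 were higher in every Ago1 library than in every GFP library and 1 was lower. Of all genes tested there, 29.5% were higher and 31.2% lower in this way. In WT cells 5 of the 10 were higher and 0 lower, where 29.2% and 31% of all genes were.

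Nbr was at 49.3, 52.9 and 52.0 CPM in dora cells under Ago1 RNAi, against 27.0, 29.5 and 31.1 CPM under GFP RNAi, and at 51.2, 52.3 and 48.0 CPM in WT cells under Ago1 RNAi, against 22.6, 21.9 and 24.8 CPM under GFP RNAi. The groups were far apart in both genotypes, and the dora GFP libraries lay a little above the WT GFP libraries. The differences were 0.81 ± 0.09 in dora (adjusted p = 2.41e-05) and 1.13 ± 0.09 in WT (2.39e-06). Their difference, dora minus WT, was -0.32 ± 0.12 (unadjusted p = 0.0255, adjusted p = 0.94, and 0.221 with the clone as a block), so a weaker rise in dora cells was not established.

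The loqs transcript was at 37.6, 41.1 and 33.8 CPM in dora under Ago1 RNAi, against 20.0, 19.6 and 20.8 CPM under GFP RNAi, and at 48.2, 38.7 and 42.1 CPM in WT under Ago1 RNAi, against 20.1, 26.8 and 24.8 CPM under GFP RNAi. In dora 29.5% and in WT 29.2% of all genes tested had their lowest Ago1 library above their highest GFP library. So did loqs in each genotype (0.89 ± 0.13 in dora, adjusted p = 0.000145, and 0.85 ± 0.12 in WT, 0.00017). Dcr-1, its partner, was at 137, 140 and 122 CPM in dora under Ago1 RNAi against 96.5, 97.9 and 88.2 CPM, and at 154, 134 and 140 CPM in WT under Ago1 RNAi against 90.4, 101 and 93.4 CPM. It rose by 0.5 ± 0.09 in dora (0.000554) and 0.59 ± 0.09 in WT (0.000149).

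Drosha and pasha encode the Microprocessor, and drosha rose by less than Nbr, loqs and Dcr-1 in both genotypes. The drosha transcript was at 65.7, 56.6 and 67.7 CPM in dora under Ago1 RNAi against 54.1, 46.6 and 56.5 CPM (0.27 ± 0.10, adjusted p = 0.0428), and at 66.7, 62.6 and 59.7 CPM in WT under Ago1 RNAi against 50.2, 47.0 and 53.8 CPM (0.32 ± 0.10, 0.0192). Of 6 fits without 1 library, 4 ended the call in dora, the exceptions being Ago1 replicate 2 and GFP replicate 3, and leaving out WT Ago1 replicate 1 or WT GFP replicate 2 ended it in WT (0.0691 and 0.0626). For pasha the levels were 42.1, 41.1 and 37.3 CPM in dora under Ago1 RNAi against 30.1, 28.7 and 18.7 CPM (0.64 ± 0.19, 0.0154), and 47.5, 43.3 and 37.8 CPM in WT under Ago1 RNAi against 41.1, 27.5 and 28.5 CPM (0.4, 0.0921). The WT groups overlap through GFP clone 1, but within each of the 3 WT clones pasha was higher under Ago1 RNAi, and with the clone as a block it was called (0.42, adjusted p = 0.00569). The dora call was lost without GFP clone 3 (0.0554).

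**Figure D4:**
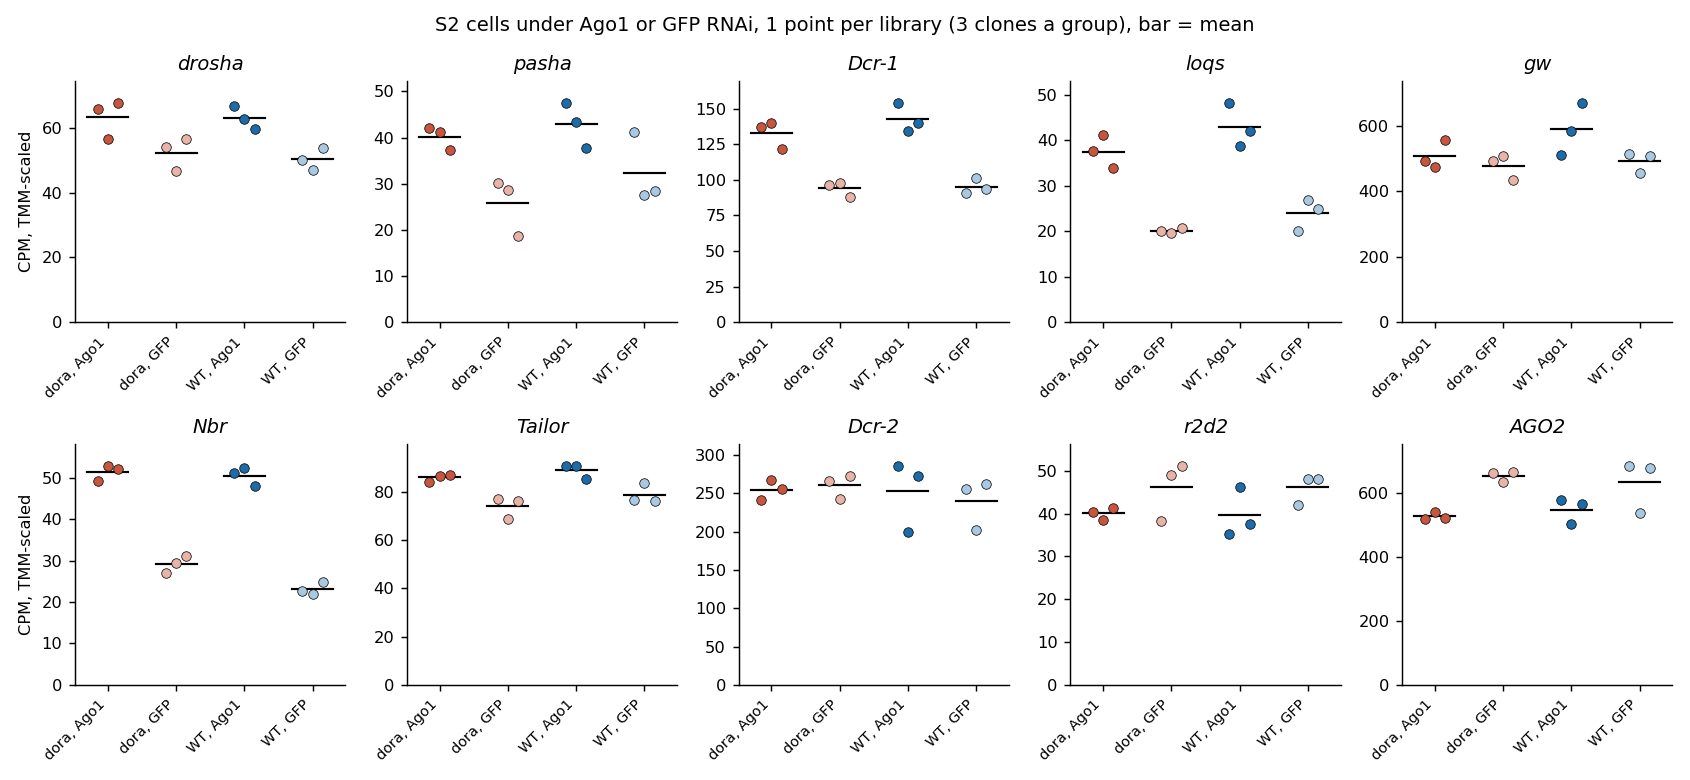
TMM-scaled CPM of the 10 genes in S2 cells, from left to right dora with Ago1 RNAi, dora with GFP RNAi, WT with Ago1 RNAi and WT with GFP RNAi, with 1 point per clone and a bar at the mean. Nbr, loqs, Dcr-1, drosha and Tailor separate Ago1 from GFP RNAi in both genotypes, and pasha and AGO2 do so in dora only. Dcr-2, r2d2 and gw overlap in both. Of all genes tested, 60.8% separate in dora and 60.2% in WT.

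Of the silencing, tailing and siRNA genes, changes were small. Tailor was at 84.1, 86.8 and 87.2 CPM in dora under Ago1 RNAi against 77.0, 68.8 and 76.1 CPM (0.22 ± 0.08, adjusted p = 0.0293), and AGO2 was at 519, 539 and 520 CPM there against 662, 634 and 663 CPM (-0.31 ± 0.10, 0.0237). AGO2 was thus the 1 gene of the 10 called lower in the fit without a clone block. Each of these calls was lost in 4 of the 6 fits without 1 library, for Tailor all but those without GFP clones 1 or 3 and for AGO2 all but those without either RNAi of clone 2, and in the fit without a filter on low counts (0.0501 and 0.0809). In WT cells Tailor differed by 0.18, gw by 0.26, Dcr-2 by 0.08, r2d2 by -0.22 and AGO2 by -0.21, with adjusted p of 0.0645 to 0.638. With the clone as a block, 9 of the 10 genes were called in WT cells instead of 4, where 69.8% of all genes were called instead of 54%. In addition pasha, gw (0.0414) and Tailor (0.0226) were then called higher and r2d2 (0.049) and AGO2 (0.0133) lower. In dora cells the blocked fit called the same 7 of 10, drosha, Tailor and AGO2 among them, where 66.8% of all genes were called. The fits without 1 library used no clone block. Without 1 library, pasha, gw, Tailor, AGO2 or r2d2 also passed in 1 WT fit each (0.0131 to 0.0493), and r2d2 in the dora fit without GFP clone 1 (0.0471).

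None of the 10 genes was called by edgeR for a different Ago1 RNAi effect between genotypes (0.0763% of all genes were, 0.0636% higher and 0.0127% lower), DESeq2 called none either, and Nbr was the 1 gene with an unadjusted p under 0.05. Marker sums also moved with the RNAi. Neuron markers summed to 172 to 279 CPM under Ago1 RNAi and 91.1 to 135 CPM under GFP RNAi, with 1 of 3 tested called higher in each genotype. Germ line markers summed to 2.65 to 8.69 CPM against 13.5 to 31.6 CPM, but did not move together. Of these, aub was called lower and osk higher in both genotypes, and vas, nanos and pgc were not tested. The osk transcript was at 4.86 against 1.96 CPM in dora and 3.96 against 1.24 CPM in WT. Hemocyte markers summed to 1300 to 1670 CPM under Ago1 RNAi and 1040 to 1340 CPM under GFP RNAi. Their part in these results was not tested.

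The lists around the 10 genes moved too. Of 18 deadenylation and decapping genes 9 were called higher and 2 lower in each genotype (medians 0.23 in dora and 0.24 in WT). PAN3, a deadenylase subunit that binds GW182, was at 449 CPM in dora under Ago1 RNAi against 186 CPM, and at 592 CPM in WT under Ago1 RNAi against 213 CPM. The decapping activator gene Edc3 was at 159 against 50.4 CPM in dora and 216 against 73.4 CPM in WT. Of 14 tailing and exosome genes 3 were higher and 3 lower in dora, and 3 higher and 8 lower in WT, with the exosome gene Mtr3 at -1.04 ± 0.14 in dora and -1.02 ± 0.14 in WT. Of 18 other core and loading genes 2 were higher and 2 lower in dora, and 2 higher and 3 lower in WT, AGO1 being the target of the RNAi itself and Dora higher by 0.72 ± 0.12 in dora and 0.55 ± 0.12 in WT. Of 23 piRNA genes 6 were higher and 5 lower in dora, and 5 higher and 6 lower in WT, with the piRNA-binding gene aub at 1.22 against 19.3 CPM in dora and 0.705 against 13.7 CPM in WT.

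Without RNAi, loqs was the 1 gene of the 10 called between dora and WT S2 clones, where 2.73% of all genes were called and 1.77% lower. The loqs transcript was at 15.6, 16.2 and 19.6 CPM in dora clones, against 28.8, 27.3 and 30.3 CPM in WT clones. All 3 dora clones were below all 3 WT clones (-0.75 ± 0.13, edgeR adjusted p = 0.0355). The call was lost without WT clone 1 (0.118), WT clone 3 (0.0947), dora clone 1 (0.0925) or dora clone 2 (0.153), with log2 differences of -0.86 to -0.69 over all 6 fits.

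With loqs, 6 of the 10 genes did not overlap between dora and WT clones, and neither did 29.9% of all genes tested (15.7% lower and 14.1% higher in all dora clones). The gene pasha, at 15.5, 17.0 and 17.0 CPM in dora clones against 25.3, 18.2 and 21.5 CPM in WT clones, and Tailor, at 56.3, 64.5 and 56.3 against 71.0, 70.3 and 71.9 CPM, were lower in all 3 dora clones (adjusted p = 0.161 and 0.148). Dcr-1, at 110, 106 and 116 CPM in dora clones against 98.0, 97.4 and 81.5 CPM in WT clones, Dcr-2, at 451, 391 and 502 against 346, 379 and 379 CPM, and Nbr, at 19.7, 20.2 and 22.3 against 19.4, 16.3 and 16.1 CPM, were higher in all 3 (0.181 to 0.259). The groups overlapped for drosha, r2d2, gw and AGO2. Around them, the deadenylase subunit gene PAN3 was the 1 called gene of the 18 deadenylation and decapping genes tested (-0.53 ± 0.10, 0.0422), and none of the 18 other core, 13 tailing and exosome or 22 piRNA genes was called.

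In the RNAi set, which holds dora and WT clones prepared with another kit, the loqs difference between genotypes was not called. Under GFP RNAi loqs was at 20.0, 19.6 and 20.8 CPM in dora against 20.1, 26.8 and 24.8 CPM in WT (-0.24 ± 0.13, adjusted p = 0.385), and under Ago1 RNAi it differed by -0.2 ± 0.12 (0.681). None of the 10 genes was called by edgeR in either contrast, where 1.18% and 0.356% of all genes were. Of the 10, Nbr alone had an unadjusted p under 0.05 under GFP RNAi (0.00234), at 0.34 ± 0.09 (0.0973), and DESeq2 called it (0.0271), while none of the 10 had one under Ago1 RNAi, where DESeq2 called none. Whether the loqs difference changed between the 2 sets was not tested, since they are separate tables.

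**Figure D5:**
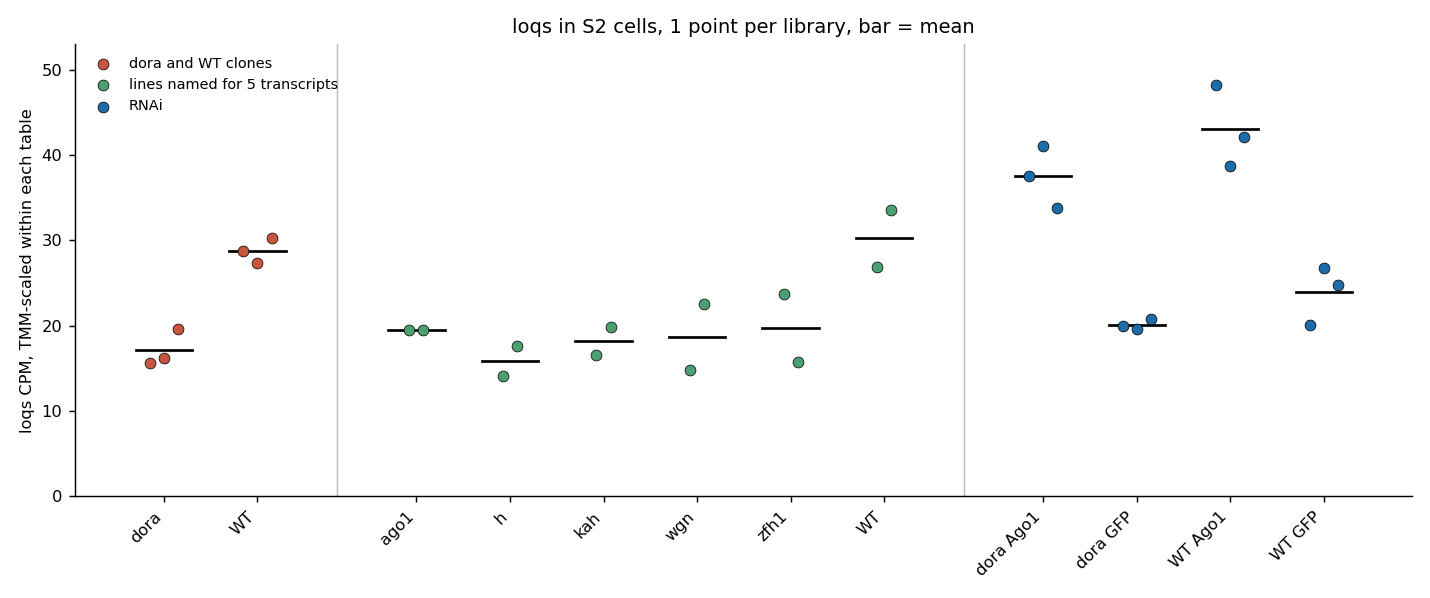
TMM-scaled CPM of loqs in every S2 library of 3 separately scaled tables (dora and WT clones, the lines named for 5 transcripts with their WT, and the RNAi set), with a bar at each mean. The dora clones (15.6 to 19.6 CPM) lie below their WT (27.3 to 30.3 CPM), all 5 named lines lie below their 2 WT libraries, and within the RNAi set loqs is at 33.8 to 48.2 CPM under Ago1 RNAi against 19.6 to 26.8 CPM under GFP RNAi.

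In the lines named for ago1, h, kah, wgn and zfh1, none of the 10 genes was called by edgeR, where 0.0128%, 0%, 0%, 0% and 0.0256% of all genes were, and DESeq2 called none of the 10 either. Between 386 and 1234 genes per line had an unadjusted p under 0.05, among them loqs in all 5 lines and Dcr-1 and AGO2 in the ago1 line. The loqs level was again below WT, at 19.5 and 19.5 CPM in the ago1 line, 14.1 and 17.6 in h, 16.6 and 19.9 in kah, 14.8 and 22.6 in wgn and 23.7 and 15.8 in zfh1, against 26.9 and 33.6 CPM in WT. Both libraries of each of the 5 lines were below both WT libraries. Line by line, 24.4% (ago1), 24.1% (h), 18.1% (kah), 22.5% (wgn) and 23.9% (zfh1) of all genes tested were lower in this way. The log2 differences of loqs were -0.63, -0.93, -0.73, -0.7 and -0.61 in that order, with unadjusted p of 0.0335, 0.00516, 0.0185, 0.0225 and 0.0389 and adjusted p of 0.283 to 0.918. All 5 comparisons share the same 2 WT libraries, so they are not independent of each other. Without ago1 replicate 3, gw (0.0352) and AGO2 (0.046) were called in the ago1 line.

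Over the 32 groups, the genes most like each of the 10 were found by Pearson's r of group means of log2 CPM, centred within each table, among 5726 genes with at least 5 CPM in every table. The values are descriptions, since the groups share tables and the embryo groups share ages. The gene drosha was most like Taf2 (r = 0.99), pasha like wek (0.98), Dcr-1 like rin (0.98), gw like Patr-1 (0.98), Nbr like Rpn7 (0.96), Tailor like Snp (0.98), Dcr-2 like bdwf (0.98) and r2d2 like spt4 (0.99). For loqs and AGO2 there was no such close match, with Kpc2 at 0.75 and Grasp65 at 0.83. Among the 10 themselves, the closest pairs were drosha and r2d2 (0.96), pasha and r2d2 (0.94), pasha and gw (0.93), Dcr-2 and r2d2 (0.93) and pasha and Tailor (0.92). Many genes outside the 10 were closer to each of these. By r, r2d2 was at rank 164 for drosha, and drosha at rank 222 for r2d2. In the other pairs the ranks ran from 96 (pasha for Tailor) to 597 (Dcr-2 for r2d2). The lowest values of r among the 10 were those of AGO2 with Tailor (-0.01), loqs (0.04) and gw (0.07).

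By position in the dm6 annotation, drosha (FBgn0026722, chromosome 2R, 7932429 to 7936840) overlaps no other annotated gene, and neither do Dcr-1 (FBgn0039016, 3R, 22734007 to 22741091) and gw (FBgn0051992, 4, 649041 to 660608). The loqs gene (FBgn0032515, 2L, 13382652 to 13385671) overlaps the antisense RNA CR44599, which had 0 to 26 counts in S2 libraries and 0 to 20 in embryos. The pasha gene (FBgn0039861, 3R, 31617977 to 31622217) overlaps kek6 (80 to 285 counts in S2 libraries, 101 to 2105 in embryos). Nbr (FBgn0032924, 2L, 21160636 to 21163083) overlaps Pld3 (1135 to 3744 and 71 to 936 counts), and Tailor (FBgn0037470, 3R, 7083225 to 7086083) overlaps Dpck (108 to 782 and 55 to 594) and the antisense RNA CR45907 (20 to 193 and 0 to 38). Dcr-2 (FBgn0034246, 2R, 17574979 to 17581525) overlaps Rab4 (838 to 2946 counts in S2 libraries, 337 to 1195 in embryos), r2d2 (FBgn0031951, 2L, 7800147 to 7802098) overlaps Cdc14 (657 to 3554 and 42 to 5819) and AGO2 (FBgn0087035, 3L, 15554113 to 15561042) overlaps CG7739 (1340 to 5248 and 456 to 2422). Since the strand setting of the counting is not given, reads from overlapping genes cannot be told apart.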

How the data were processed

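The deposited mRNA tables hold raw counts of reads per gene, 1 column per library. Per the submitters' processing notes dm6, STAR 2.4 and HTSeq were used, with no roles given. Per the labels' protocols, libraries were NEXTflex Rapid Directional (poly(A), 50-nt single reads), and for the RNAi set Kapa Hyperprep (50-nt paired reads). Rows that name no gene, 6.02% to 20.5% of reads, were removed, and 17226 of 17477 identifiers had a symbol. Each table was fitted alone in edgeR 4.0.16 (R 4.3.3; TMM, filterByExpr, robust quasi-likelihood, 1 coefficient per group), with 29 comparisons, Benjamini-Hochberg adjustment over all genes and a threshold of 0.05. Means weigh ages equally, and SE is the log2 fold change over the root of F. The fit was tested on simulated data. Alternatives were RLE scaling, no filter, DESeq2 1.42.0, a replicate block and leaving out each library. Clones of the RNAi set pair (the same clone in both treatments, residual correlation 0.62 to 0.75). In the CR43432 set the titles name lines 1 and 2, which pair a genotype's ages, with correlations of same-numbered libraries of -0.05 to 0.32 over the set. The 10 genes are all named, list genes come from the 4 called genes per list with the smallest adjusted p, and the most similar gene from 3 per gene. The genes and lists were chosen with earlier results of these data known. The 68 small RNA libraries were not used. No libraries of a group were near duplicates (lowest chi-square per gene 15.02), and 1 column of the wgn line was matched to its group by name alone. The p-values measure only how much these samples vary, which may be technical in part.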

Additional observations from a re-analysis of the deposited data

Results flagged for a closer look

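In 17 pairs of effects, each examined for all 10 genes, 2 cases of a gene in a pair moved in opposite directions in every library. The share of all genes with such opposite moves was not counted. Non-overlap in 1 contrast was common. At 8 to 12 h 10.8% of all genes were lower in this way in dora[A], and 29.2% higher and 28.9% lower in dora[B]. At 16 to 20 h 18.5% were higher in dora[B]. Loqs at 8 to 12 h differed by -0.2 in dora[A] embryos and by 0.37 in dora[B] embryos, each against its own WT, with both mutant libraries below WT in dora[A] and above WT in dora[B]. This difference between alleles was not tested, because the alleles are in separate tables. Dcr-1 in dora[B] differed by -0.36 at 8 to 12 h and by 0.52 at 16 to 20 h, with both mutant libraries below WT at the first age and above it at the last. The change between these ages was 0.88 ± 0.38 on the log2 scale (edgeR adjusted p = 0.324) and was not called.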

How the results depend on the processing

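Outside the fits that leave out 1 library, 1112 of 1150 single-gene results kept their direction and their side of the threshold, 28 newly passed, 10 were lost and none reversed. The number of the 10 genes called moved by more than 1.5 times in these cases. With the replicate number as a block it was 0 instead of 1 for S2 dora against WT (loqs adjusted p = 0.0642), 9 instead of 4 for Ago1 RNAi in WT (clone block), 1 instead of 2 for dora[B] at 8 to 12 h and 3 instead of 5 for the 12 to 16 h step in dora[B] controls. The block moved no other count of the 10 by more than 1.5 times. In the CR43432 set, where the numbers are lines of each genotype, the block used the number alone and so joined mutant and WT lines of 1 number. It changed no call of the 10 genes. A block for the lines within each genotype was not fitted. The S2 dora, dora[A] and dora[B] libraries share only a number, with correlations of same-numbered deviations of -0.28 to 0.16, -0.08 to 0.51 and -0.49 to 0.33. DESeq2 gave 1 instead of 0 for dora against WT under GFP RNAi, for the CR43432 mean and for CR43432 at 12 to 16 h. RLE scaling gave 1 instead of 2 for dora[B] at 8 to 12 h. At 2 to 4 against 0 to 2 h, RLE scaling, no filter and DESeq2 each gave 9 instead of 5, and RLE moved the median of all genes by 0.22. Leaving out 1 library gave 0 to 1 for S2 dora, 4 to 6 for Ago1 RNAi in dora, 0 to 2 for the ago1 line, 0 to 0, 0 to 5 and 0 to 8 for dora[B] at the 3 ages, and 4 to 8 at 2 to 4 against 0 to 2 h. It gave 2 to 5 (CR43432 controls), 1 to 3 (dora[A] controls) and 1 to 1 (dora[B] controls) at 12 to 16 against 8 to 12 h, and 0 to 1 at 16 to 20 against 12 to 16 h in the dora[A] and dora[B] controls. The causes were not tested. Over all genes, S2 dora against WT gave 199 calls, 837 in DESeq2, 383 without a filter and 32 with the block; dora against WT under GFP RNAi gave 93, 360 in DESeq2 and 317 with the block; dora[B] at 8 to 12 h gave 785, 1420 in DESeq2 and 480 with RLE. For dora[B] at 12 to 16 h, 1296 genes were higher and 1447 lower, but 1575 and 766 with RLE, and for its mean 2028 and 2827, but 2230 and 1216 without a filter.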

Other observations

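In wild-type embryos, genes of the chaperones that open Argonaute proteins for loading were lower at 2 to 4 h than at 0 to 2 h. Hsp83, the fly Hsp90, was at 517 CPM at 2 to 4 h, against 3230 CPM at 0 to 2 h (log2 difference -2.64 ± 0.19, edgeR adjusted p = 1.86e-06). Its co-chaperone genes Stip1 (96.5 CPM against 521 CPM) and p23 (189 CPM against 685 CPM) were lower as well. Over the same step Nbr and Dcr-1 were called lower and r2d2, drosha and AGO2 higher. The gene vig, whose product was first found in the RNAi effector complex, was at 682 CPM at 8 to 12 h, against 81 CPM at 2 to 4 h, where drosha, pasha, gw, Tailor, Dcr-2 and r2d2 were called lower and Nbr and AGO2 higher.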
